A study of Mus musculus with 12 samples.

Results

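The PAK kinases were followed through 12 RNA-seq samples of mouse mammary tissue as 5 genes, Pak1, Pak2, Pak3, Pak4 and Pak6, each of which had 1 row in every file, out of 23301 gene names shared by all 12 files. Gene expression was measured in 4 groups of 3 samples, all from female mice aged 12 weeks. Normal was mammary tissue of FVB wild type mice, with the abdominal and the inguinal glands of 3 animals pooled in each replicate. Tumor was the thoracic gland tumor of 1 untreated MMTV-PyVT mouse per replicate. In this strain the MMTV promoter drives the polyoma virus oncogene PyVT in mammary epithelium. DMSO and C646 were the largest tumors of MMTV-PyVT mice that had been injected with the solvent or with C646, an inhibitor of the histone acetyltransferase p300, 1 mouse per replicate. The labels list 1 mg/kg for both injections. The Tumor, DMSO and C646 mice all carried the oncogene and the Normal mice did not. Gland position, pooling of animals and tissue type cannot be told apart in the comparison of Tumor with Normal. All values are FPKM, fragments per kilobase of transcript, scaled to the number of mapped fragments, so that levels can be compared between genes. The methods state 1 target depth for all RNA-seq libraries, but FPKM do not show the depth that each sample reached, so no interval for counting error was given.

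PAKs are serine/threonine kinases that act downstream of the small GTPases Rac and Cdc42. The group I enzymes, encoded by Pak1, Pak2 and Pak3, are held inactive by their own regulatory domain until a GTP-bound GTPase opens them. The group II enzymes, encoded by Pak4, Pak5 and Pak6, bind Cdc42 but are kept in check differently. Both groups act on the actin cytoskeleton, cell adhesion, survival and mitogen signaling, and PAK1 and PAK4 lie in regions that are amplified in some human breast cancers. In mice, Pak3 and Pak5 are best known from the nervous system. Pak5 is listed in the files under its older symbol Pak7 and is given here by level only.

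Normal glands expressed mainly Pak2, and tumors expressed mainly Pak1 and Pak4. Between Normal and Tumor, Pak1 rose 3.55-fold, Pak6 rose 3.48-fold and Pak4 rose 2.73-fold in the fit, whereas Pak2 fell to 0.741 of its level in Normal. Pak3 stayed under 1 FPKM in every sample. Between DMSO and C646 no PAK gene passed the test. The study placed Pak4 beside a tumor super-enhancer, a dense cluster of active enhancers. It showed Pak4 as an example of such genes, with the RNA signal in normal tissue and tumor. The values here come from that same study, so the rise of Pak4 is not independent of that choice.

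Pak1 encodes the group I kinase that phosphorylates LIM kinase and MEK1. It lies on the plus strand of chr7:97788541-97912381 (GENCODE vM21 on GRCm38, the build called mm10). In Normal its level was 10.5, 8.29 and 7.53 FPKM. In Tumor it was 24.6, 30.0 and 39.8 FPKM. The lowest Tumor sample was above the highest Normal sample by more than the range of the Normal samples. Means were 8.76 ± 1.52 FPKM (SD, n = 3) in Normal and 31.5 ± 7.74 FPKM (SD, n = 3) in Tumor. The log2 fold change was 1.83 (SE 0.216, 95% interval 1.32 to 2.33), with an adjusted p of 0.000359 by limma with Benjamini-Hochberg adjustment over 13031 genes. In the injected mice, Pak1 measured 47.3, 39.8 and 37.2 FPKM in DMSO and 37.9, 30.2 and 32.1 FPKM in C646. The highest Pak1 value of the series was in DMSO replicate 1, and the DMSO and C646 samples overlapped.

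Pak4 encodes the most widely expressed group II kinase, which is needed for embryonic development and acts on LIM kinase and beta-catenin. It lies on the minus strand of chr7:28558819-28598185. Normal samples held 9.35, 8.08 and 6.31 FPKM. Tumor samples held 17.2, 22.9 and 24.8 FPKM, with no overlap between the groups. The means were 7.91 ± 1.53 FPKM in Normal and 21.7 ± 3.96 FPKM in Tumor (SD, n = 3 each). The log2 fold change was 1.45 (SE 0.208, 95% interval 0.961 to 1.94, limma adjusted p = 0.000867). In DMSO, Pak4 measured 25.8, 32.0 and 29.8 FPKM, and in C646 it measured 35.0, 29.9 and 26.5 FPKM. The highest of all 12 values was in C646 replicate 1, and each C646 value but that one lay within the range of DMSO.

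The annotation of Pak4 overlaps with that of Samd4b, which encodes an RNA-binding protein and spans chr7:28399522-28598144 on the same strand. The exons of both genes share 39 bases, 1.10% of the 3535 exonic bases of Pak4, and reads from those bases cannot be assigned to 1 gene. Samd4b measured 10.9 ± 1.07 FPKM in Normal and 18.9 ± 3.7 FPKM in Tumor (SD, n = 3 each). Its log2 fold change was 0.77 (SE 0.180, limma adjusted p = 0.00771). The ratio of Pak4 to Samd4b was 0.865, 0.670 and 0.636 in Normal and 0.911, 1.51 and 1.10 in Tumor. Each Tumor ratio was thus above each Normal ratio, although replicate 1 of both groups lay close together.

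Pak6 encodes a group II kinase first described as a partner of the androgen receptor. It lies on the plus strand of chr2:118663303-118698020. Its level was 2.31, 1.71 and 1.95 FPKM in Normal and 6.68, 7.67 and 6.54 FPKM in Tumor. These groups were separated by more than 4 FPKM. The means were 1.99 ± 0.301 FPKM and 6.97 ± 0.618 FPKM (SD, n = 3 each), and the log2 fold change was 1.80 (SE 0.191, 95% interval 1.35 to 2.25, limma adjusted p = 0.000225). In DMSO the gene measured 7.45, 5.69 and 6.83 FPKM, and in C646 it measured 7.45, 7.31 and 6.65 FPKM. Pak6 was the steadiest member among the 9 tumors, with a highest level 1.35 times the lowest.

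Pak2 encodes the group I kinase found in nearly all tissues. It lies on the minus strand of chr16:32016290-32079342. Normal samples held 20.9, 20.9 and 25.2 FPKM, and Tumor samples held 16.2, 16.1 and 17.2 FPKM. All Tumor values were lower than all Normal values, by a gap smaller than the range within Normal. The means were 22.4 ± 2.50 FPKM and 16.5 ± 0.589 FPKM (SD, n = 3 each), and the log2 fold change was -0.43 (SE 0.133, 95% interval -0.746 to -0.120, limma adjusted p = 0.0249). This call was lost without Normal replicate 1 (adjusted p = 0.0514), without Normal replicate 3 (adjusted p = 0.102) and without Tumor replicate 2 (adjusted p = 0.0538). Pak2 measured 26.1, 26.8 and 21.8 FPKM in DMSO and 23.3, 25.3 and 26.2 FPKM in C646. The injected tumors thus overlapped with Normal in Pak2, while the untreated tumors lay below all other samples.

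Pak3 encodes the group I kinase of neurons and lies on the plus strand of chrX:143518591-143797796. It was detected at 0.472, 0.108 and 0.233 FPKM in Normal and at 0.240, 0.146 and 0.754 FPKM in Tumor. In DMSO it measured 0.283, 0.498 and 0.565 FPKM, and in C646 it measured 0.487, 0.369 and 0.372 FPKM. No sample reached 1 FPKM, the minimum for testing, and all groups overlapped. With no such minimum the log2 fold change was 0.35 between Normal and Tumor (95% interval -1.34 to 2.03) and -0.08 between DMSO and C646 (95% interval -1.28 to 1.12). Pak7, the sixth gene of the family, is listed at 0 in 10 samples, at 0.0870 FPKM in Normal replicate 2 and at 0.0417 FPKM in C646 replicate 3. The summed level of 5 neuron markers was 5.27 to 8.24 FPKM in Normal, 0.791 to 1.82 FPKM in Tumor, 0.356 to 6.35 FPKM in DMSO and 0.187 to 0.821 FPKM in C646. Of these, Stmn2 alone was high enough to test in Tumor against Normal and was called lower. The markers Snap25 and Syt1 were listed at 0 in all Tumor and DMSO samples, and were under 1 FPKM in all Normal samples too. In DMSO, Tubb3 was the only neuron marker to reach 1 FPKM in any sample.

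**Figure D1:**
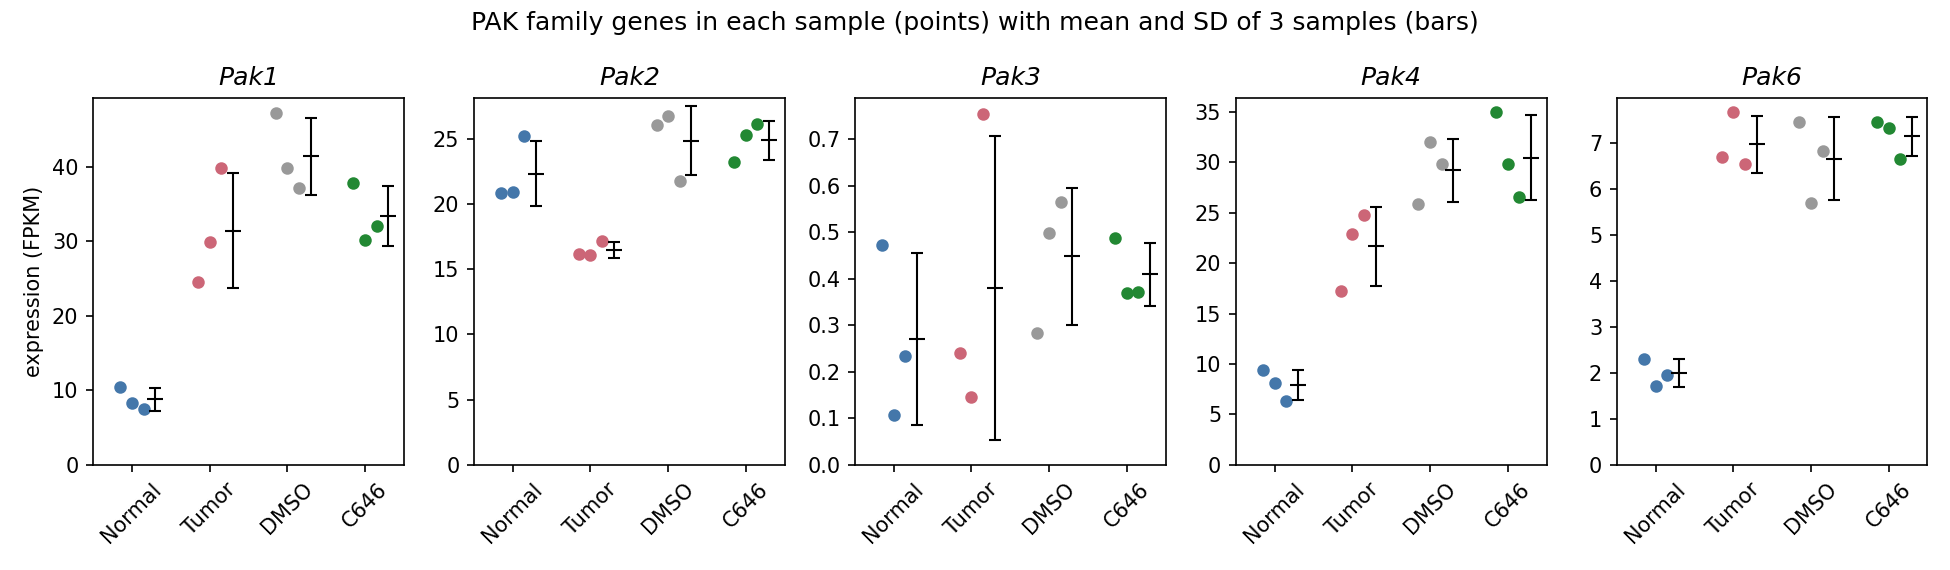
Expression of the 5 PAK genes in FPKM (vertical axes, each from 0 and scaled to its gene) in the 3 samples of each group (points, replicates 1 to 3 from left to right), with the mean and SD beside them (bars). Pak1, Pak4 and Pak6 lie higher in each tumor group than in Normal, Pak2 is lowest in Tumor, and Pak3 stays at or below 0.754 FPKM.

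Of the 4 members tested, 3 were called higher in Tumor and 1 lower. Over all genes tested, 28.8% were called higher and 31.7% lower, and 33.1% were higher and 35.8% lower with no overlap between the groups, so a call or a separation of this kind was common in this comparison. The size of the changes stood further out: 7.80% of the tested genes had a higher log2 fold change than Pak1, 8.03% a higher one than Pak6 and 10.8% a higher one than Pak4. The fold change of Pak2 lay below that of 64.3% of the tested genes. The median log2 fold change was -0.02 over all genes tested and 1.62 over the 4 members.

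Markers of several cell types also differed between Normal and Tumor, some being higher in Tumor and some lower. The summed level of 7 luminal epithelium markers, such as the keratin genes Krt8 and Krt18, ranged from 434.7 to 912 FPKM in Normal and from 2858 to 3827 FPKM in Tumor, and 6 of the 7 were called higher. The 6 adipocyte markers fell, all 6 called, from a sum of 17460 to 22270 FPKM to a sum of 84.7 to 1312 FPKM. The 6 T and B lymphocyte markers were all called lower, from a sum of 278 to 368 FPKM down to 0.442 to 1.28 FPKM, with the B cell marker Ms4a1 at 0 in all Tumor samples. The 5 skeletal muscle markers were all called higher, from 33.4 to 88.5 FPKM in Normal to 1447 to 4064 FPKM in Tumor. The 4 endothelium markers were all called lower (a sum of 99.2 to 125 FPKM in Normal and 11.0 to 17.9 FPKM in Tumor), as were 5 of 5 macrophage markers (112 to 136 FPKM and 32.3 to 50.5 FPKM over the 4 that all files list) and 3 of 4 fibroblast markers (818 to 889 FPKM and 158 to 316 FPKM). Of 5 Schwann cell markers 3 were called lower and 1 higher, with a sum of 79.4 to 84.6 FPKM in Normal and 153 to 203 FPKM in Tumor. The 5 muscle markers summed to 0.376 to 307 FPKM in DMSO and to 0.831 to 320.3 FPKM in C646. The lowest values of Pak1, Pak4 and Pak6 in those injected tumors were 2.89, 2.76 and 2.47 times the highest Normal value. The injected tumors were deposited with other numbers of rows than Normal. The part of these cell types, muscle included, in the PAK differences was not tested in any group. A change in the number of cells and a change in RNA per cell cannot be told apart in such tissue.

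In C646 against DMSO, no member was called, and neither was any of the 12083 genes tested in limma (0% higher and 0% lower), with 384 genes at an unadjusted p under 0.05. Pak1 had the lowest fold change of the members, a log2 fold change of -0.31 (95% interval -0.658 to 0.0396, adjusted p = 0.990), from 41.4 ± 5.22 FPKM in DMSO to 33.4 ± 4.0 FPKM in C646 (SD, n = 3 each). Pak2 was 24.9 ± 2.68 FPKM in DMSO and 24.9 ± 1.48 FPKM in C646, with a log2 fold change of 0.00 (95% interval -0.306 to 0.314). Pak4 was 29.2 ± 3.12 FPKM in DMSO and 30.5 ± 4.24 FPKM in C646, with a log2 fold change of 0.06 (95% interval -0.300 to 0.415). For Pak6, 6.66 ± 0.893 FPKM in DMSO stood against 7.14 ± 0.425 FPKM in C646, with a log2 fold change of 0.11 (95% interval -0.285 to 0.499). All 4 members overlapped between the groups, while 4.04% of all genes tested lay higher in C646 with no overlap and 4.52% lower. These intervals leave room for a change of up to the bounds given, so the test does not show that the levels were equal.

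**Figure D2:**
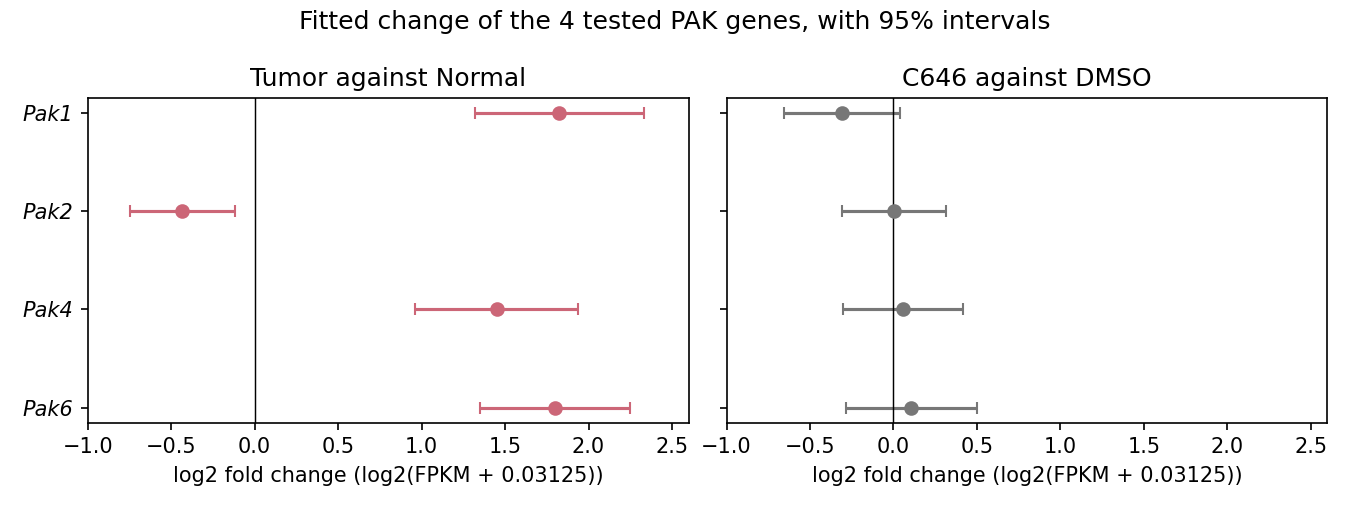
Fitted log2 fold change (horizontal axis, on log2(FPKM + 0.0313)) of the 4 tested PAK genes in Tumor against Normal and in C646 against DMSO, with 95% intervals as bars and calls at an adjusted p under 0.05 in red. The Tumor intervals of Pak1, Pak4 and Pak6 start at 0.961 or above, and each C646 interval includes 0.

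The make-up of the family differed between Normal and each tumor group. Pak2 made up 48.0%, 53.5% and 61.2% of the summed FPKM of the 5 genes in Normal, and 25.0%, 21.0% and 19.3% in Tumor. Pak1 made up 24.1%, 21.2% and 18.3% in Normal and 37.9%, 39.0% and 44.7% in Tumor, so that Pak1 took the place of Pak2 as the leading transcript. The ratio of Pak1 to Pak2 was 0.398 ± 0.101 in Normal and 1.90 ± 0.403 in Tumor (SD, n = 3 each). In DMSO this ratio was 1.67 ± 0.166, and in C646 it was 1.35 ± 0.242 (SD, n = 3 each), with C646 replicate 1 at 1.63 inside the DMSO range of 1.49 to 1.81. The group II genes Pak4 and Pak6 together held 24.0% ± 3.53 of the sum in Normal, 37.3% ± 2.37 in Tumor, 35.0% ± 3.56 in DMSO and 38.9% ± 2.46 in C646 (SD, n = 3 each). The sum itself was 41.3 ± 2.16 FPKM in Normal and 76.9 ± 12.1 FPKM in Tumor (SD, n = 3 each). These shares come from the same values as the fold changes and were not tested. Normal and Tumor were deposited with 26220 rows per file and DMSO and C646 with 24304, so levels set across these pairs of groups may also differ in processing.

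**Figure D3:**
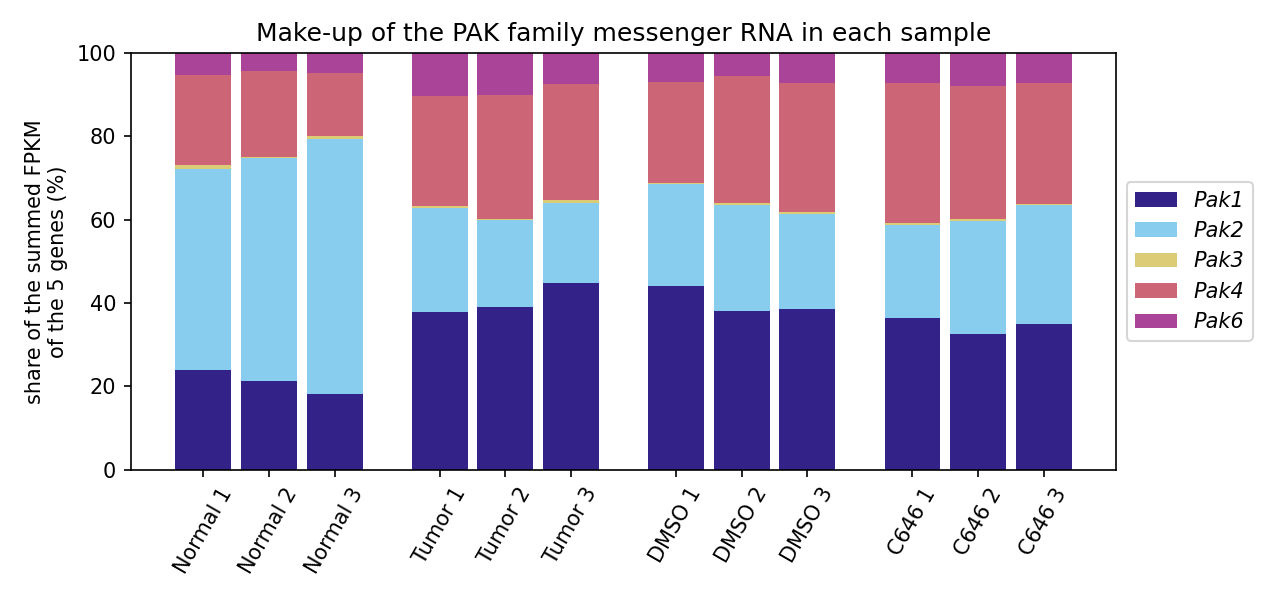
Share of each PAK gene in the summed FPKM of the 5 genes (vertical axis, %), with 1 bar per sample. Pak2 holds 48.0% to 61.2% in the Normal bars and less than Pak1 in all 9 tumor bars.

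In order of mean level, Normal had Pak2 first, followed by Pak1 and Pak4, then Pak6 and Pak3. Pak1 and Pak4 overlapped there (7.53 to 10.5 FPKM and 6.31 to 9.35 FPKM). Tumor had Pak1 first, followed by Pak4 and Pak2, then Pak6 and Pak3. In Tumor, Pak1 and Pak4 overlapped at 24.6 to 39.8 FPKM and 17.2 to 24.8 FPKM, whereas the lowest Pak4 value lay just above the highest Pak2 value of 17.2 FPKM. In DMSO, Pak4 at 25.8 to 32.0 FPKM overlapped with Pak2 at 21.8 to 26.8 FPKM, and in C646 it overlapped with Pak1. These are ranges over a group. Within each single sample Pak1 lay above Pak4. The ratio of Pak1 to Pak4 was 1.03 to 1.19 in Normal, 1.31 to 1.61 in Tumor, 1.24 to 1.83 in DMSO and 1.01 to 1.21 in C646.

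Sequences before the transcription start are shown side by side for the 3 members that were called higher in Tumor. They are the 250 bases upstream of a RefSeq start (GRCm38.p6), 5′ to 3′ on the strand of the gene. Capitals mark matches, on either strand, to the GC box GGGCGG, to the 5 letters of the CCAAT box, to the cAMP response element TGACGTCA, to the E box with the letters CACGTG and to the ETS core, for which CGGAAG was searched. For Pak1 the window of the first of 2 starts is shown, chr7:97788291-97788540, plus strand, for Pak4 chr7:28598185-28598434, minus strand, and for Pak6 chr2:118663327-118663576 and chr2:118676996-118677245, plus strand.
Pak1, first start: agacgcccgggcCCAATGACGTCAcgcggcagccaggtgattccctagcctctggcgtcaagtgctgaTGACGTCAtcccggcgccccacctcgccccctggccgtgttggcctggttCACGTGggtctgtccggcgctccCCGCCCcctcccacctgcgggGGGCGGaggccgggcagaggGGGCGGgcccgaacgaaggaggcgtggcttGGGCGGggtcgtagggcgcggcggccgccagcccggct
Pak4: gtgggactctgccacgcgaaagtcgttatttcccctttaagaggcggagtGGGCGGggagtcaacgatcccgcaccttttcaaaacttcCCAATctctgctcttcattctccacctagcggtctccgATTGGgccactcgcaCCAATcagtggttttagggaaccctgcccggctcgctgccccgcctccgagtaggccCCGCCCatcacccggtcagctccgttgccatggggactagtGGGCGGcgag
Pak6, first start: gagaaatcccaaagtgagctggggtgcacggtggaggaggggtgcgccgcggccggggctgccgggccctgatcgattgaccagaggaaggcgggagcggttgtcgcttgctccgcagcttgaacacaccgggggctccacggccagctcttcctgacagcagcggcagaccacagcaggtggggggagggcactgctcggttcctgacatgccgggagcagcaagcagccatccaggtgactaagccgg
Pak6, second start: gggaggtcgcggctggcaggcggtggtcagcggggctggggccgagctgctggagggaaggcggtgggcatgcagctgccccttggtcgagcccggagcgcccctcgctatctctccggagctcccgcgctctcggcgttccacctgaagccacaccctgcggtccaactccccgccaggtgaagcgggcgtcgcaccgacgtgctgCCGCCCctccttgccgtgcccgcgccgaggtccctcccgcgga
The first Pak1 window held 2 cAMP response elements, the first of which overlaps with the CCAAT box, 1 E box and 4 GC boxes. A cAMP response element was found in 1.55% of the 32851 windows of this length in the table, and 2 or more in 0.0304%. The window at the second Pak1 start, chr7:97842689-97842938, held 3 GC boxes, 1 CCAAT box and neither a cAMP response element nor an E box. The Pak4 window held 3 CCAAT boxes and 3 GC boxes, and a CCAAT box was found in 33.8% of all windows and a GC box in 32.7%. Neither motif was in the first Pak6 window, and the second held 1 GC box. None of these windows held an ETS core, which 13.6% of all windows did, and an E box was in 6.02%. In GENCODE the span of Pak6 starts at chr2:118663303, so both Pak6 windows lie within that span, although each precedes a RefSeq start. The GENCODE span of Samd4b, on the same strand as Pak4, has its 5′ end at chr7:28598144. The Pak4 window thus lies just upstream of Samd4b as well. The windows at the first and second Pak1 start held 29 and 7 CpG dinucleotides, that of Pak4 held 19 and those at the first and second Pak6 start held 17 and 29, against a median of 6 over all windows. The windows at the starts of Pak3, which stayed under 1 FPKM, held 10, 3 and 3. These are matches of letters and were not tested against the expression values.

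The partners of the PAK kinases moved in both directions between Normal and Tumor. Of 45 partner genes tested from 5 lists, 11 were called higher in Tumor, 12 lower and 22 not, which is 24.4% and 26.7%, near the shares over all genes. Their median log2 fold change was 0.12, against -0.02 over all genes.

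Among the GTPases that bind PAKs, 1 of 7 was called higher and 1 lower, and the median log2 fold change was -0.06. Rhou, an atypical Cdc42-like GTPase that binds PAK1 and PAK4, rose from 18.6, 12.2 and 15.7 FPKM in Normal to 41.7, 39.0 and 35.2 FPKM in Tumor (log2 fold change 1.34, SE 0.180, limma adjusted p = 0.000643). Rac2, the Rac of blood cells, fell from 77.1, 112 and 75.8 FPKM to 4.91, 2.76 and 2.93 FPKM (log2 fold change -4.66, SE 0.264, limma adjusted p = 2.49e-05), beside the lymphocyte markers given above. The widely expressed activators Cdc42 and Rac1 were not called, at 206 ± 13.7 and 159 ± 5.57 FPKM in Normal and 198 ± 17.0 and 208 ± 70.5 FPKM in Tumor (SD, n = 3 each).

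Of 12 exchange factors and adaptors, 3 were called higher and 3 lower, with a median log2 fold change of 0.22. Nck2, an adaptor that brings PAKs to activated receptors, measured 15.4, 11.9 and 13.9 FPKM in Normal and 31.5, 25.0 and 43.0 FPKM in Tumor (log2 fold change 1.24, SE 0.218, limma adjusted p = 0.00219). Arhgef6, the exchange factor alpha-PIX that binds PAKs directly, rose from 14.4 ± 0.654 to 27.2 ± 3.91 FPKM (SD, n = 3 each, log2 fold change 0.91). Its paralog Arhgef7, beta-PIX, was not called. Git2, a scaffold for PIX proteins, fell from 12.9 ± 1.05 to 8.26 ± 0.938 FPKM (SD, n = 3 each, log2 fold change -0.64), while Git1, also a scaffold for PIX proteins, was called higher. Vav1, the Vav exchange factor of blood cells, fell from 15.2 ± 1.44 to 2.43 ± 1.40 FPKM (SD, n = 3 each, log2 fold change -2.80).

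Of 6 negative regulators tested, none was called higher and 2 were called lower, with a median log2 fold change of -0.05. Nf2, which encodes merlin, an inhibitor of PAK1, measured 20.9, 22.9 and 22.5 FPKM in Normal and 14.8, 15.4 and 19.7 FPKM in Tumor (log2 fold change -0.42, SE 0.152, limma adjusted p = 0.0444). Fam212a, an older symbol of Inka1, which encodes an inhibitor of PAK4, measured 10.9, 9.63 and 6.52 FPKM in Normal and 6.47, 2.99 and 2.46 FPKM in Tumor (log2 fold change -1.27, SE 0.382, limma adjusted p = 0.0226). Its lowest Normal sample and highest Tumor sample differed by less than 0.1 FPKM.

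Of 13 cytoskeletal targets, 5 were called higher and 5 lower, and their median log2 fold change was 0.38. Cttn, which encodes the actin-binding protein cortactin, rose from 48.9, 41.1 and 44.4 FPKM to 138, 106 and 143 FPKM (log2 fold change 1.52, SE 0.159, limma adjusted p = 0.000211). The cofilin phosphatases diverged. Ssh2 fell from 9.14 ± 0.271 to 2.35 ± 0.0357 FPKM (log2 fold change -1.95) and Ssh1 fell from 2.77 ± 0.353 to 0.831 ± 0.299 FPKM (log2 fold change -1.76), whereas Ssh3 was called higher (SD, n = 3 each). The LIM kinase genes also diverged, Limk1 being called lower and Limk2 higher. Mylk, which encodes myosin light chain kinase and is high in smooth muscle and myoepithelium, fell from 17.4 ± 3.60 to 2.41 ± 1.03 FPKM (SD, n = 3 each, log2 fold change -2.89), and 3 of the 6 basal epithelium markers were called lower and 2 higher.

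Of 7 genes of the kinase cascade and survival list, 2 were called higher and 1 lower, with a median log2 fold change of 0.02. Ctnnb1, which encodes beta-catenin, rose from 189, 163 and 215 FPKM to 312, 286 and 299 FPKM (log2 fold change 0.67, SE 0.153, limma adjusted p = 0.00721). Bad, which encodes a pro-death protein that PAKs phosphorylate, rose from 37.7 ± 7.01 to 62.5 ± 11.9 FPKM (log2 fold change 0.73). Pdpk1, which encodes a kinase that phosphorylates PAK1, fell from 7.53 ± 0.537 to 3.41 ± 0.461 FPKM (log2 fold change -1.14, SD, n = 3 each). Map2k1, which encodes MEK1, had a log2 fold change of -0.01 and was not called.

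**Figure D4:**
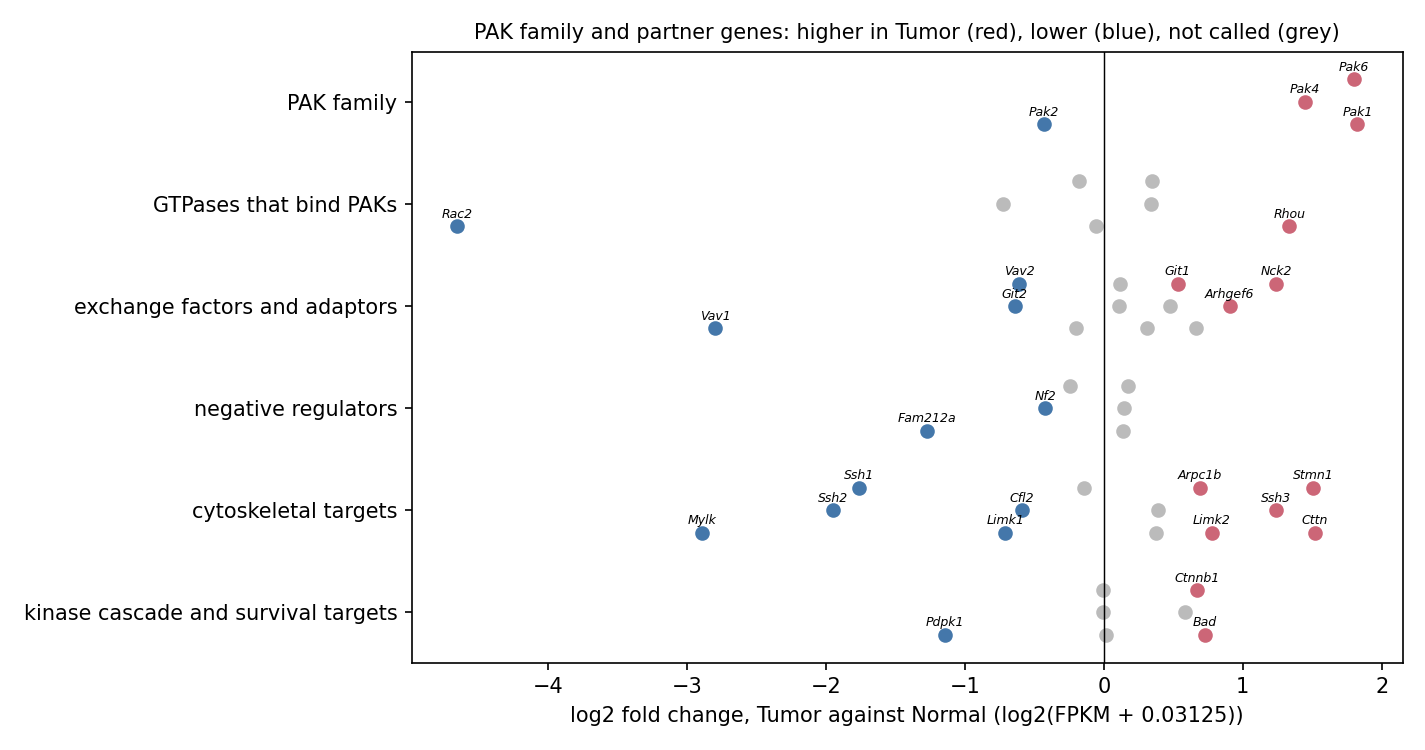
Log2 fold change in Tumor against Normal (horizontal axis, on log2(FPKM + 0.0313)) of the tested PAK genes and of 45 partner genes in 5 lists (rows), 1 point per gene with small vertical offsets for legibility and with names beside the called genes. Red points were called higher in Tumor and blue points lower at an adjusted p under 0.05. Among the partners 11 points are red and 12 blue.

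In C646 against DMSO none of the 44 partner genes tested was called in limma, none had an unadjusted p under 0.05, and their median log2 fold change was -0.07. The genes with the smallest p of each list were Rac1, Rhou, Vav2, Vav1, Fam212a, Pak1ip1, Ssh3, Cfl1, Map2k1 and Mapk3. Rac1 was 160, 161 and 161 FPKM in DMSO and 145, 149 and 148 FPKM in C646, with no overlap. Its log2 fold change was -0.12 (SE 0.105, unadjusted p = 0.278, limma adjusted p = 0.990). This SE rests in part on the variance of other genes. Map2k1 was 77.6, 45.3 and 63.4 FPKM in DMSO and 42.7, 44.6 and 50.4 FPKM in C646 (log2 fold change -0.41, unadjusted p = 0.0900 in limma). Vav2 was 9.89 ± 1.54 FPKM in DMSO and 12.4 ± 1.28 FPKM in C646 (SD, n = 3 each, log2 fold change 0.33, unadjusted p = 0.0896 in limma). Fam212a was 2.25, 1.73 and 2.79 FPKM in DMSO and 1.27 and 1.25 FPKM in C646 replicates 1 and 2, and was listed at 0 in C646 replicate 3. All 5 adipocyte markers tested had an unadjusted p under 0.05, none was called, and the summed level of the 6 adipocyte markers, Lep included, was 9.95 to 47.2 FPKM in DMSO and 58.7 to 302 FPKM in C646.

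The genes whose pattern over the 12 samples was most like that of each member were found by Pearson's r of log2(FPKM + 0.0313) among 13232 genes. For Pak1, Pak4 and Pak6 the points share the step between Normal and tumors. Pak2 and the genes most like it had their lowest mean in the untreated tumors, below both Normal and the injected tumors. Untreated and injected tumors were deposited with other numbers of rows, so processing may add to that step. The values are a description. Pak1 was most like Specc1 (r = 0.990) and Ephb4 (r = 0.985), which encodes an ephrin receptor. Pak4 was most like Prc1 (r = 0.986), which encodes a microtubule bundler of the dividing cell, Rps6ka6 (r = 0.985) and Fam83d (r = 0.984), a spindle gene. Pak6 was most like Kcnk1 (r = 0.992), which encodes a potassium channel, Ttc39a (r = 0.991) and Apol7a (r = 0.990). Pak2 was most like Trp53inp1 (r = 0.979), Dennd4c (r = 0.976) and Arhgef12 (r = 0.973), which encodes a GTPase exchange factor. Over the 9 tumors alone the same pairs had r from 0.830 to 0.893 for Pak1, from 0.884 to 0.908 for Pak4, from 0.540 to 0.731 for Pak6 and from 0.977 to 0.991 for Pak2.

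Among the members, Pak1, Pak4 and Pak6 had pairwise r of 0.931 to 0.965 over the 12 samples, and Pak2 had r of -0.0899 to 0.117 with them. Over the 9 tumors Pak1 and Pak4 had r = 0.587, while Pak6 had r = -0.0925 with Pak1 and r = -0.0596 with Pak4. Pak2 and Pak4 had r = 0.715 there, both being lowest in the untreated tumors. These values rest on 3 groups that were deposited in different files and are given with no test.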

How the data were processed

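RNA-seq of poly-A RNA was made with a kit that does not keep strand, and paired reads were trimmed, mapped to mm10 with TopHat2 2.1.1 and quantified with Cufflinks 2.2.1. The authors deposited FPKM per gene, 1 file per sample, with 26220 rows for Normal and Tumor (1837 of them with no gene name) and 24304 for DMSO and C646. The annotation was not given in the sources used here.

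Rows without a name were dropped and repeated names summed. A gene was tested if 3 or more of its 6 samples reached 1 FPKM, on log2(FPKM + 0.0313) with limma 3.58.1 in R 4.3.3 (trend in the variance, Benjamini-Hochberg adjustment, threshold 0.05), separately for each comparison. FPKM are not counts, so no count model was used, and fold changes of low genes are understated by the pseudocount. The script was tested on simulated data. Tables and plots were made with Python 3.11.15. Groups came from the labels. Each p-value sets the difference between groups against a moderated spread. That spread combines the variance between samples within the groups with a variance estimated from all genes of similar level. The samples are pools of 3 mice in Normal and single mice in the other groups, so an SD in Normal is a spread between pools.

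The members, gene lists and tests were chosen with earlier results of these data known. Named partner genes were, per list, up to 4 called genes with the largest change and no overlap between groups, or else those with the 2 smallest p, and 3 genes were named per member by likeness over 12 samples. Other genes named beside them, such as Cdc42, Git1, Ssh3 and Limk1, were chosen after their values were seen. Some genes that this rule names are not reported here.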

Additional observations from a re-analysis of the deposited data

How the results depend on the processing

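Under 14 alternatives per comparison (pseudocounts, filter, scalings, variance trend, replicate block, highest row of a name, and each replicate left out) Pak1, Pak4 and Pak6 kept their calls in Tumor against Normal, with log2 fold changes of 1.64 to 1.99, 1.30 to 1.61 and 1.42 to 2.31. For Pak2 these were -0.479 to -0.343, and its call was lost with the replicate block (-0.433, adjusted p = 0.0509) and without Normal replicate 1, Normal replicate 3 or Tumor replicate 2 (-0.479 to -0.343 over the replicates left out). Quantile normalization moved the median log2 fold change of all genes by 0.133, to 0.117, and that of Pak6 to 2.31. In C646 against DMSO, no member was called under any of the 14, and leaving out a replicate changed the sign of Pak2 (-0.0877 to 0.0595), Pak4 (-0.0467 to 0.152) and Pak6 (-0.0011 to 0.193). Over all genes, 0 to 12 were called with a replicate left out, the 12 being lower in C646 without DMSO replicate 2. The cause of these changes was not tested.

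Samples were not treated as paired by replicate number. Same-numbered deviations correlated at -0.0982 to 0.0104 in Normal and Tumor and at 0.0699 to 0.175 in DMSO and C646. Not every sample correlated best with its own number. With 3 samples per group these values cannot decide whether same-numbered samples were paired. With the replicate block, 7266 genes in place of 7886 were called in Tumor against Normal and 0 in C646 against DMSO, and no other member call changed. The share of Pak3 in the summed FPKM went from 0.642% to 0.420% in Normal without Normal replicate 1 and from 0.469% to 0.280% in Tumor without Tumor replicate 3. Over the 9 tumors alone the genes most like each member were others except Trp53inp1 for Pak2. The depth that each sample reached is unknown, so Pak3 and Pak7 at their low levels have no counting interval.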
